A study of Talaromyces verruculosus with 6 samples.

Results

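Among the annotated genes of the filamentous fungus Talaromyces verruculosus strain TS63-9, 78 of 11326 stand apart from their neighbours on the contig. These genes have at least 4000 bp of sequence without annotated genes on each side. They were found from gene positions only: genes were sorted along each contig, a gene had to have an annotated neighbour on both sides (10815 genes did), and both gaps had to reach 4000 bp. No expression value entered the choice. These 78 are called isolated genes here. RNA was sequenced from mycelia of this strain in liquid basic medium with pectin at 5 g/L (3 cultures, pectin 1 to 3) and in the same medium with no pectin (3 cultures, control 1 to 3), all collected after 24 h. The series calls the cultures biological replicates. All libraries come from this strain, and the medium's other components are not described in the labels. The deposited tables pair the locus tags with no gene name or function, so the material could not be checked against marker genes, no pathway list could be applied, and genes are given by tag or position.

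Pectin is a polysaccharide of plant cell walls built largely of galacturonic acid. Filamentous fungi that live on plant matter secrete enzymes that break it into sugars they can take up, and the genes of such enzymes are often switched on by the sugars released. Fungal genomes are compact, and most genes lie close to the next one, so that promoters and transcript ends share short spacers. A wide gap can hold repeats, transposons, genes that an annotation missed, or long regulatory stretches such as the promoter of the budding yeast adhesin gene FLO11.

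The gap between neighbouring genes had a median of 858 bp over 11040 gaps, with quartiles of 468 and 1686 bp, and 6.32% of gaps reached 4000 bp. Around isolated genes the smaller gap ran from 4042 to 8022 bp with a median of 4942 bp, and the widest gap of all was 16717 bp. The gap before the start of the gene had a median of 5915 bp and the gap after its end 5490 bp, and the first was the larger in 44 of 78. The isolated genes lay on 51 of 286 contigs, 29 of which held 1, and no contig held more than 4. Of them, 35 were annotated on the plus strand and 43 on the minus strand. The next gene upstream was on the opposite strand, start to start, for 47.4% of isolated genes and for 57.5% of all genes with neighbours on both sides. The next gene downstream was on the opposite strand for 48.7% and 57.7%. In 11 places 2 isolated genes were next to each other and shared a gap, which involved 21 of the 78. They are therefore not independent of each other in position.

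Isolated genes had about the usual coding length and fewer exons. Their median coding length was 1331 bp (quartiles 890 and 1817 bp), beside 1284 bp over all annotated genes, and ran from 231 to 5247 bp. Their median exon number was 2, beside 3 over all genes, with up to 15. A single exon was annotated for 27 of 78 (34.6%), beside 22.1% of all genes. Genes whose smaller gap was 3000 to 4000 bp were close to them, with a median of 2 exons and 31.4% with a single exon. No test was made of these differences.

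Between 10320372 and 11393959 reads fell on exons per library, and 10394 to 10548 genes had at least 1 exon read. A count of 0 allows up to 0.263 to 0.291 CPM (reads scaled to library size), the value of 3 reads, which covers counting error only. Control 1 and pectin 1 had the highest scores on the second principal component of the log2 CPM (19.5% of the variance), at 44.1 and 24.9. Pectin 2 lay between, at 2.61, and control 2, pectin 3 and control 3 lay at −20.3, −23.4 and −27.9. The first component (67.4%) separated the 3 pectin libraries from the 3 controls. Counts and medians from the test are also given without control 1 and pectin 1.

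Many isolated genes were scarcely transcribed, with or without pectin. Levels are given in RPKM, a read count scaled to exon length and to the number of reads in the library. The median isolated gene had 4.57 ± 0.198 RPKM in pectin libraries and 6.02 ± 1.70 RPKM in controls (SD, n = 3 each; exact permutation p = 0.1, two-sided, the smallest this design allows; Benjamini-Hochberg adjusted p = 0.143 over 10 library measures). By library it was 4.50, 4.42 and 4.80 RPKM with pectin, against 7.98, 5.04 and 5.03 RPKM in controls, so that control 1 stood above the others and the other controls lay close to the pectin libraries. The median over all annotated genes was 8.18 ± 0.333 RPKM with pectin and 9.28 ± 0.772 RPKM in controls. Averaged over the 6 libraries, 28 of the 78 (35.9%) were under 1 RPKM, beside 24.1% of all genes, and 16 (20.5%) were under 0.1 RPKM, beside 10.4%. At the top, 2 (2.56%) reached 100 RPKM, beside 8.38% of all genes. Between these ends, 31 isolated genes (39.7%) lay from 10 to 100 RPKM, close to the 40.2% of all genes. Low levels were not particular to isolated genes: where the smaller gap was 3000 to 4000 bp, 37.2% of genes were under 1 RPKM. The median of the means over 6 libraries was 2.50 RPKM in that class, 5.44 RPKM in isolated genes and 9.20 RPKM over all genes. In bulk RNA of this kind, fewer cells that use a gene and less of its RNA per cell cannot be told apart.

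**Figure D1:**
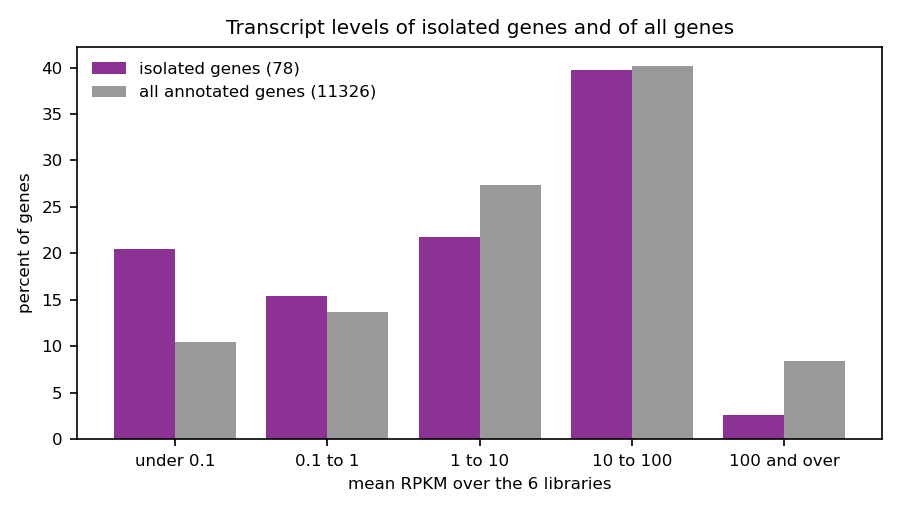
Share of the 78 isolated genes (purple) and of all 11326 annotated genes (grey) by mean RPKM over the 6 libraries; the vertical axis is the percent of genes, and the lowest class is under 0.1 RPKM. Isolated genes are more often in the lowest class (20.5% beside 10.4%) and less often at 100 RPKM and over (2.56% beside 8.38%).

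No exon read was found in any of the 6 libraries for 7 isolated genes (8.97%, beside 2.63% of all genes), and 3 of these 7 had a few reads outside annotated exons. The filter on low counts kept 56 of the 78 for testing, or 71.8%, beside 81.0% of all genes. The 22 left out had 0 to 54 exon reads each in all 6 libraries together, with a median of 2.5, and 15 of them had at most 5. Their response to pectin was not measurable at this depth.

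The 3 isolated genes with the highest levels were not called changed. ZTR_07013, on LHCL01000040 from 220155 to 221714 with 4 exons on the plus strand, had 270.7, 185.5 and 176.8 RPKM in pectin 1 to 3, against 398.9, 373.5 and 286.4 RPKM in control 1 to 3. On RPKM the groups did not overlap, but after division by TMM factors, which correct for genes that take many reads in a library, pectin 1 lay above control 3. The log2 fold change of −0.59 (standard error 0.25) missed the threshold (edgeR adjusted p = 0.148). ZTR_00821, on LHCL01000004 from 589709 to 591512 with 2 exons on the plus strand, is the isolated gene whose smaller gap is widest, at 8022 bp. It had 74.1, 183.8 and 244.8 RPKM with pectin, against 84.9, 241.6 and 208.4 RPKM in controls, so that replicate 1 was lowest in both groups and the groups overlapped fully (log2 fold change −0.00, standard error 0.52). ZTR_05515, on LHCL01000014 from 431228 to 433978 with 3 exons on the minus strand, had 29.2, 60.9 and 103.3 RPKM with pectin, against 110.2, 127.4 and 157.5 RPKM in controls. On RPKM all pectin libraries lay below all controls, but after division by TMM factors pectin 3 lay above control 1, and the spread within the groups was wide (log2 fold change −0.92, standard error 0.41, edgeR adjusted p = 0.178).

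The design asks which genes mycelia use more or less when pectin is present. Of the 56 isolated genes tested, 10 fell with pectin and 2 rose by edgeR's quasi-likelihood method, with p-values adjusted by Benjamini and Hochberg over all 9177 genes tested and a threshold of 0.05. Over all tested genes, 7.00% fell and 9.20% rose, against 17.9% and 3.57% of the isolated genes. At least 2-fold lower were 8 (14.3%, beside 5.49% of all tested genes), and at least 2-fold higher were 2 (3.57%, beside 6.08%). No test of the list against other genes was made. In 18 of the 56 every pectin library lay below every control on CPM divided by TMM factors (32.1%, beside 17.8% of all tested genes), and in 5 every pectin library lay above (8.93%, beside 20.1%). The count of genes that fell depended on single libraries: it was 4 without pectin 2 (4 of them at 2-fold), 6 without pectin 1 (5 at 2-fold), 15 without control 1 and pectin 1 together, and 14 without control 1. It was also 15 in DESeq2 and 15 in edgeR with library size as the only scaling. In that last fit 65.9% of all tested genes had a negative fold change, against 50.5% with TMM factors. The shares of all tested genes that fell in these alternatives are not given here, so their counts have no background beside them. The count that rose was 1 without control 2 or without pectin 2, and 3 without control 1 or without control 3.

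More isolated genes had a negative than a positive fold change. The log2 fold change of pectin over control was negative in 38 of 56 isolated genes (67.9%), beside 50.5% of all tested genes. Its median was −0.39 over the isolated genes, with quartiles of −0.85 and 0.12, and −0.01 over all tested genes. Among the 44 that were not called, 28 were negative, with a median of −0.21. Without control 1 and pectin 1 together, the median over the isolated genes was −0.10 and 36 of 58 were negative, beside a median of −0.00 over all genes. Leaving out control 1 alone gave −0.35 and leaving out pectin 1 alone gave −0.30. With library size as the only scaling the median was −0.59, beside −0.21 over all tested genes.

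**Figure D2:**
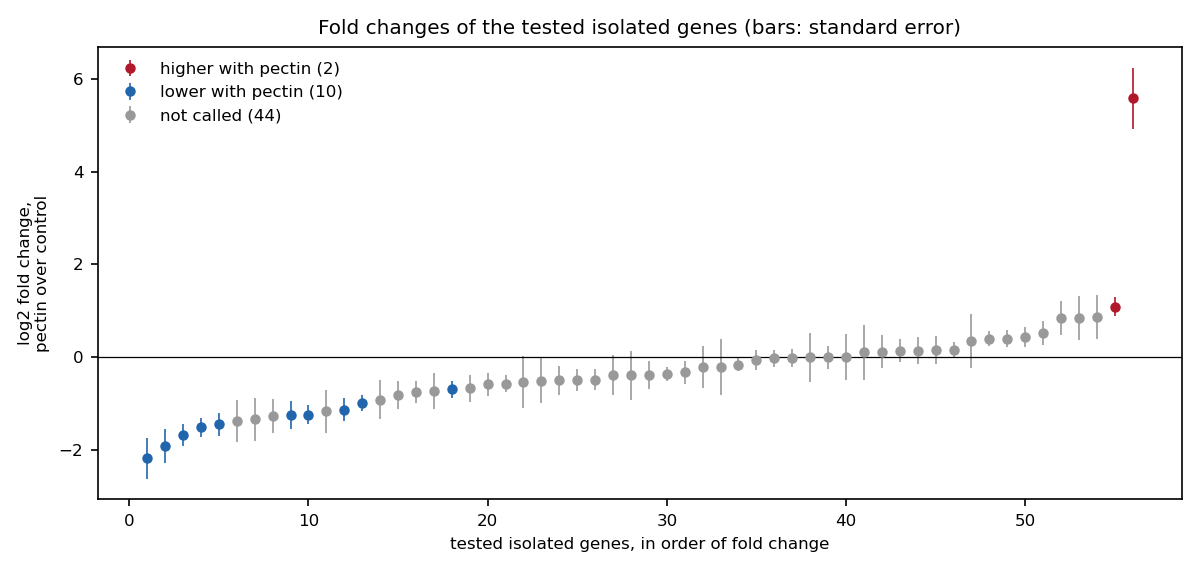
Log2 fold change of pectin over control (vertical axis) for the 56 tested isolated genes in order of size (horizontal axis), with standard errors as bars; red marks the 2 genes that rose, blue the 10 that fell and grey the 44 not called. Most points lie below 0 (38 of 56), and 1 gene stands far above the rest at 5.58.

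The gene with the widest change was ZTR_10076, a single-exon gene of 477 bp coding length on LHCL01000111 from 54952 to 55428 on the minus strand. It had 10.1, 12.7 and 22.1 RPKM in pectin 1 to 3, against 0, 0.58 and 0.36 RPKM in control 1 to 3. It was thus nearly silent in controls, where it had 0, 5 and 3 exon reads, against 83, 100 and 171 with pectin. Its mean was 15.0 ± 6.29 RPKM with pectin and 0.313 ± 0.293 RPKM in controls (SD, n = 3 each), with a log2 fold change of 5.58 (standard error 0.66, edgeR adjusted p = 0.00219). The fitted fold of a gene with so few control reads is not precise, and it ran from 4.99 to 6.36 on the log2 scale over the alternatives tried. Of its reads, 47.8% lay outside the annotated exon.

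The contig of ZTR_10076 held 3 further isolated genes, all of them tested and none called. They were at 6687 to 12195, at 32449 to 38180 (ZTR_10071) and at 45631 to 49953, and the last shares the 4998 bp gap with ZTR_10076. Their log2 fold changes were −0.75 (standard error 0.23), −0.33 (0.26) and −0.02 (0.19). ZTR_10071 had 1.32, 2.15 and 2.29 RPKM with pectin, against 3.36, 2.59 and 2.08 RPKM in controls, and the groups overlapped.

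ZTR_11068, also with 1 exon, lies on LHCL01000066 from 137217 to 139235 on the minus strand. It had 32.5, 38.6 and 52.6 RPKM with pectin, against 20.7, 18.3 and 24.9 RPKM in controls. All 3 pectin libraries lay above all controls. The log2 fold change was 1.09 (standard error 0.21, edgeR adjusted p = 0.0149), a 2.13-fold rise. The call was lost without control 2 or without pectin 2, with an adjusted p of up to 0.0697 in edgeR over all alternatives.

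Among the genes that fell, ZTR_08987 and ZTR_08505 were the most abundant of those at least 2-fold lower. ZTR_08987, on LHCL01000042 from 187662 to 188697 with 3 exons on the minus strand, had 9.80, 11.1 and 14.6 RPKM with pectin, against 31.0, 26.9 and 34.2 RPKM in controls. No pectin library came near a control. Its mean was 11.8 ± 2.48 RPKM with pectin and 30.7 ± 3.68 RPKM in controls (SD, n = 3 each), 2.36-fold lower (log2 fold change −1.24, standard error 0.20, edgeR adjusted p = 0.00766). ZTR_08505, on LHCL01000036 from 116491 to 117459 on the minus strand, was the only gene among the 10 that fell with a single exon. It had 4.56, 4.63 and 10.4 RPKM with pectin, against 22.8, 23.8 and 34.3 RPKM in controls, and replicate 3 was the highest in both groups. It was 3.79-fold lower (log2 fold change −1.92, standard error 0.37, edgeR adjusted p = 0.0142). That call was lost without pectin 1 or without pectin 2 (adjusted p of at most 0.0642 in edgeR).

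The other 8 genes that fell are given by position. The largest fall was that of a gene on LHCL01000001 from 826799 to 827856, which had 2.26, 1.44 and 5.45 RPKM with pectin, against 15.6, 12.6 and 17.1 RPKM in controls, or 4.52-fold lower. It has the widest gap of the set before its start, 16717 bp, and 4092 bp after its end. Genes on LHCL01000045 (186341 to 187891) and LHCL01000017 (136447 to 137690) were 3.20-fold and 2.86-fold lower and kept their call in all 14 alternative fits, as did ZTR_08987. The gene on LHCL01000045 had 1.73, 1.88 and 2.04 RPKM with pectin, against 8.87, 6.11 and 5.25 RPKM in controls. The gene on LHCL01000017 had 4.72, 4.75 and 5.71 RPKM with pectin, against 16.6, 17.4 and 13.8 RPKM in controls. In both, the pectin libraries were close together and the controls were all well above them.

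A gene on LHCL01000074 from 121954 to 126729, the longest of those that fell with 4641 bp of coding sequence, had 1.59, 1.76 and 1.99 RPKM with pectin, against 7.96, 4.43 and 4.06 RPKM in controls. It was 2.74-fold lower, control 1 stood above the other controls, and the call was lost without pectin 2 (edgeR adjusted p = 0.0501). Genes on LHCL01000008 (366008 to 367849) and LHCL01000118 (14560 to 16833) were 2.39-fold and 2.19-fold lower. The first was under 1.2 RPKM throughout, at 0.387 ± 0.0551 RPKM with pectin and 1.03 ± 0.140 RPKM in controls (SD, n = 3 each). The most abundant gene of the 10, on LHCL01000002 from 546444 to 547896, was 1.99-fold lower in the fit, with 35.2 ± 2.93 RPKM with pectin and 78.0 ± 16.0 RPKM in controls. A gene on LHCL01000003 from 999813 to 1001005 was 1.62-fold lower, at 9.23 ± 1.39 RPKM with pectin and 16.5 ± 1.61 RPKM in controls (SD, n = 3 each). The genes on LHCL01000008 and LHCL01000003 lost their call in 6 fits each: without any 1 library other than control 1, and without control 1 and pectin 1 together. The gene on LHCL01000118 lost it without control 2, control 3 or pectin 3, that on LHCL01000001 without pectin 1 or pectin 2, and that on LHCL01000002 without pectin 2. Together the 10 genes summed to 84.5 ± 11.6 RPKM with pectin and 219.4 ± 16.8 RPKM in controls (SD, n = 3 each), a description of genes chosen by the same test. Of the 20 tested isolated genes with 1 exon 2 rose and 1 fell, while of the 36 with several exons 0 rose and 9 fell. Over all tested genes, 6.86% of those with 1 exon rose and 7.37% fell, and 9.83% of those with several exons rose and 6.89% fell; the split by exon number was not tested.

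**Figure D3:**
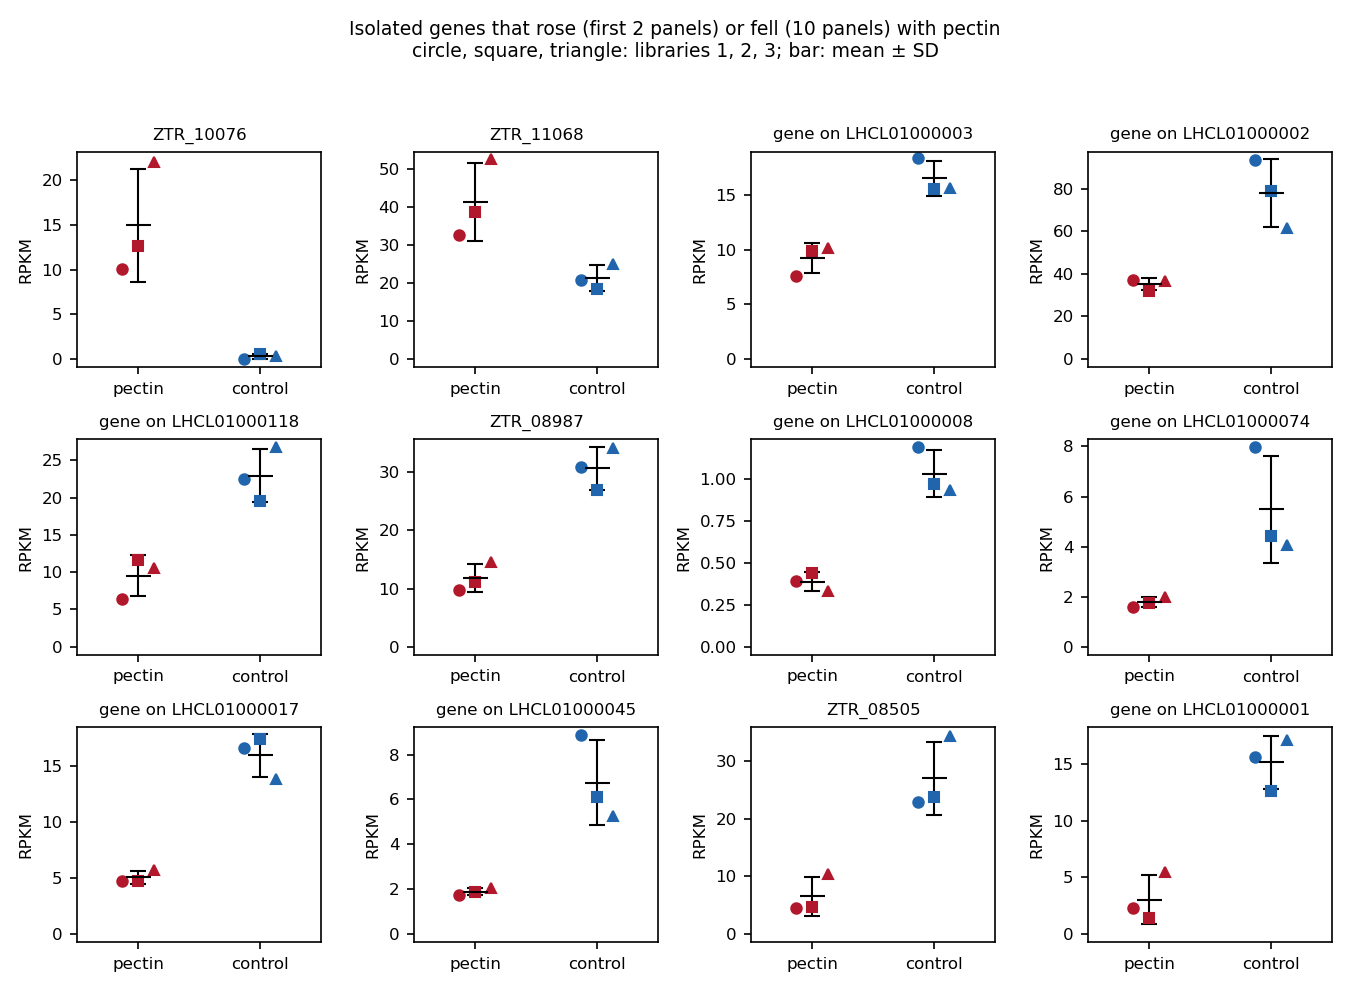
RPKM (vertical axis, own scale in each panel) of the 12 isolated genes that changed, in 3 pectin libraries (red, left) and 3 controls (blue, right), with libraries 1 to 3 as circle, square and triangle and the mean ± SD as bars. In each panel no pectin point overlaps the control points, and ZTR_10076 is at 0 to 0.58 RPKM in controls.

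The 44 tested isolated genes that were not called had log2 fold changes from −1.38 to 0.87, and 26 of them were within 0.5 of 0. All 4 whose fitted change was 2-fold or more were lower with pectin. On LHCL01000028 a gene from 104446 to 105783 had 13.3, 14.2 and 32.1 RPKM with pectin, against 42.8, 45.9 and 67.8 RPKM in controls (log2 fold change −1.28, edgeR adjusted p = 0.0536). The gene on LHCL01000112 from 26717 to 28147 had 18.7, 22.7 and 57.8 RPKM with pectin, against 55.0, 73.1 and 112.2 RPKM in controls (log2 fold change −1.17, edgeR adjusted p = 0.129). In both, replicate 3 was the highest of its group. The other two, on LHCL01000108 from 16241 to 19690 and on LHCL01000008 from 386056 to 387540, had their highest level in control 1, at 1.44 RPKM beside at most 0.58 RPKM elsewhere and at 24.7 RPKM beside at most 7.81 RPKM elsewhere.

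Several isolated genes were higher in replicate 3 than in replicate 1 of both groups. The comparison used CPM divided by TMM factors. On that scale, replicate 3 was at least 2-fold over replicate 1 both with pectin and in controls in 7 of the 56 tested (12.5%, beside 2.87% of all tested genes). The reverse was seen in 0 (beside 1.94%). This comparison was made after the values were seen and has no test, and for ZTR_10076, which is among the 7, it rests on 0 and 3 control reads. The clearest case was a gene on LHCL01000014 from 243842 to 244679, with 9.33, 17.0 and 42.0 RPKM in pectin 1 to 3, and 9.57, 19.5 and 28.3 RPKM in control 1 to 3. A gene on LHCL01000004 from 1113686 to 1114312 had 21.8, 29.7 and 120.9 RPKM with pectin, against 48.6, 73.9 and 89.8 RPKM in controls. Its controls 1 and 3 differ by less than 2-fold on RPKM. After division by TMM factors, replicate 3 was 5.19-fold over replicate 1 with pectin and 2.10-fold in controls. ZTR_00821, described above, followed the same order of replicates 1 and 3.

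Tested genes with more space around them more often had a negative fold change, while the share called lower did not rise in every class. By the smaller of a gene's gaps, the share with a negative log2 fold change was 48.0% under 500 bp, 51.2% from there to 1000 bp, 56.1% from 1000 to 2000 bp, 56.5% from 2000 to 3000 bp and 62.4% from 3000 to 4000 bp. It was 65.5% of the isolated genes from 4000 to 5000 bp and 70.4% of those with 5000 bp or more. The median log2 fold change was 0.03 in the first of these classes, −0.24 from 3000 to 4000 bp, and −0.21 and −0.51 in the 2 classes of isolated genes. No test was made across classes. By the smaller of a gene's gaps, 5.06% of tested genes fell where it was under 500 bp, 7.59% from there to 1000 bp, 10.4% from 1000 to 2000 bp and 14.5% from 2000 to 3000 bp (12.4% from 2000 to 4000 bp). The share then dropped to 5.88% of 85 genes from 3000 to 4000 bp and was 6.90% of 29 isolated genes from 4000 to 5000 bp. Among the 27 tested isolated genes with 5000 bp or more on each side, 8 fell (29.6%) and 1 rose. The count of 8 was 4 without pectin 2 and 5 without pectin 1 or without control 2. It was 9 without control 1 and pectin 1 together, 10 without control 1, 11 with library size as the only scaling and 12 in DESeq2. The count of 2 among the 29 was 0 without pectin 2, 1 without pectin 1 and 3 in DESeq2. It was 4 without control 1 or with library size as the only scaling, and 6 without control 1 and pectin 1 together. The counts of these alternatives have no share of all tested genes beside them. The share of genes that rose was 9.20% under 500 bp, 8.72% from there to 1000 bp and 7.96% from 1000 to 2000 bp. It was 10.7% from 2000 to 3000 bp, 5.88% from 3000 to 4000 bp, and 3.45% and 3.70% in the 2 classes of isolated genes. Where 1 gap alone reached 4000 bp, 8.80% of 898 tested genes fell and 7.68% rose, and where no gap did, 6.69% of 7822 fell and 9.03% rose. The share of scarcely read genes, averaging under 1 RPKM, was 18.1% where the smaller gap was under 500 bp. It was 36.2% from 2000 to 3000 bp and 37.2% from 3000 to 4000 bp. Among isolated genes it was 40.5% from 4000 to 5000 bp and 30.6% at 5000 bp and over.

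**Figure D4:**
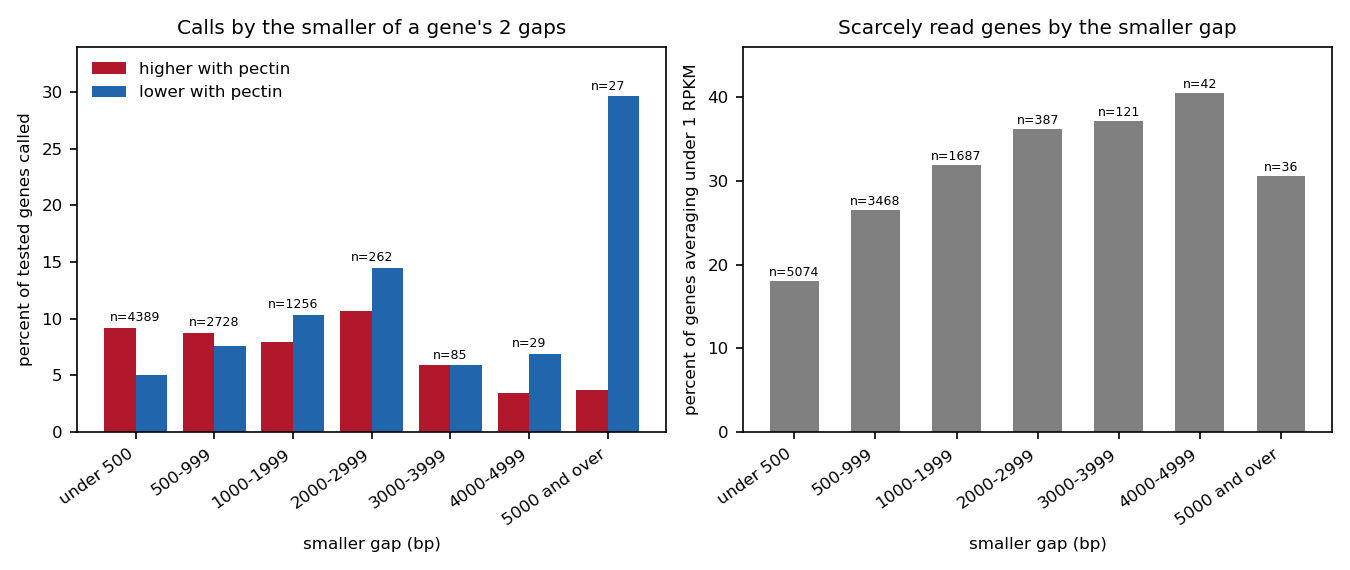
Left, percent of tested genes that rose (red) or fell (blue) with pectin; right, percent of genes averaging under 1 RPKM; both by the smaller of a gene's gaps in bp, with the number of genes above the bars. Calls of lower genes are most frequent in the last class (8 of 27, 29.6%) and lower in the classes just before it (5 of 85, 5.88%, and 2 of 29, 6.90%).

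Next to the 10 isolated genes that fell, more neighbours rose than fell, an order that turned when single libraries were left out. Of their 20 neighbours, 14 were tested, of which 5 rose and 2 fell. Next to all tested genes that fell, 5.17% of tested neighbours rose and 22.4% fell (1026 neighbours, a gene counting once for each side). Those 1026 lie at any distance from the gene that fell, whereas the 14 lie across gaps of at least 4000 bp. Both neighbours that fell flank ZTR_08987, with log2 fold changes of −2.38 and −2.45, so these 3 genes fell together across gaps of 5008 and 10808 bp. The gene on LHCL01000008 from 366008 to 367849 lay between 2 genes that rose, with log2 fold changes of 1.95 (standard error 0.40) on its left and 5.66 (0.65) on its right. The neighbour of 5.66 averaged 10.4 RPKM with pectin and 0.227 RPKM in controls. Genes that rose also lay 5904 bp from the gene on LHCL01000045 (2.50, standard error 0.57), 4092 bp from that on LHCL01000001 (0.87, 0.19) and 11053 bp from that on LHCL01000002 (0.73, 0.20). The count of 5 was 1 without control 2, without pectin 1 or without pectin 2, and 2 without control 3, and it stayed at 5 without control 1 and pectin 1 together. The count of neighbours that fell was 3 without control 3 and 2 in the other left-out fits, so that more neighbours fell than rose without control 2, control 3, pectin 1 or pectin 2. With library size as the only scaling 3 neighbours rose and 2 fell, and with a filter of 10 CPM 1 rose and 2 fell. The comparison with neighbours has no test.

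Around the genes that rose, the picture was mixed. Both neighbours of ZTR_11068 rose, with log2 fold changes of 3.67 (standard error 0.58) and 1.15 (0.26), across gaps of 5510 and 5827 bp. Neither neighbour of ZTR_10076 was called, at −0.02 (0.19) and 0.86 (0.30, edgeR adjusted p = 0.0970). Thus 2 of the 4 tested neighbours rose and 0 fell. Next to all tested genes that rose, 23.1% of 1413 tested neighbours, at any distance, rose and 3.75% fell. Among the 72 tested neighbours of isolated genes that were not called, 6 rose (8.33%) and 9 fell (12.5%), beside 7.88% and 5.66% of the tested neighbours of all genes that were not called. The 72 lie across gaps of at least 4000 bp and the neighbours of all genes at any distance, so the sets are not alike in spacing.

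**Figure D5:**
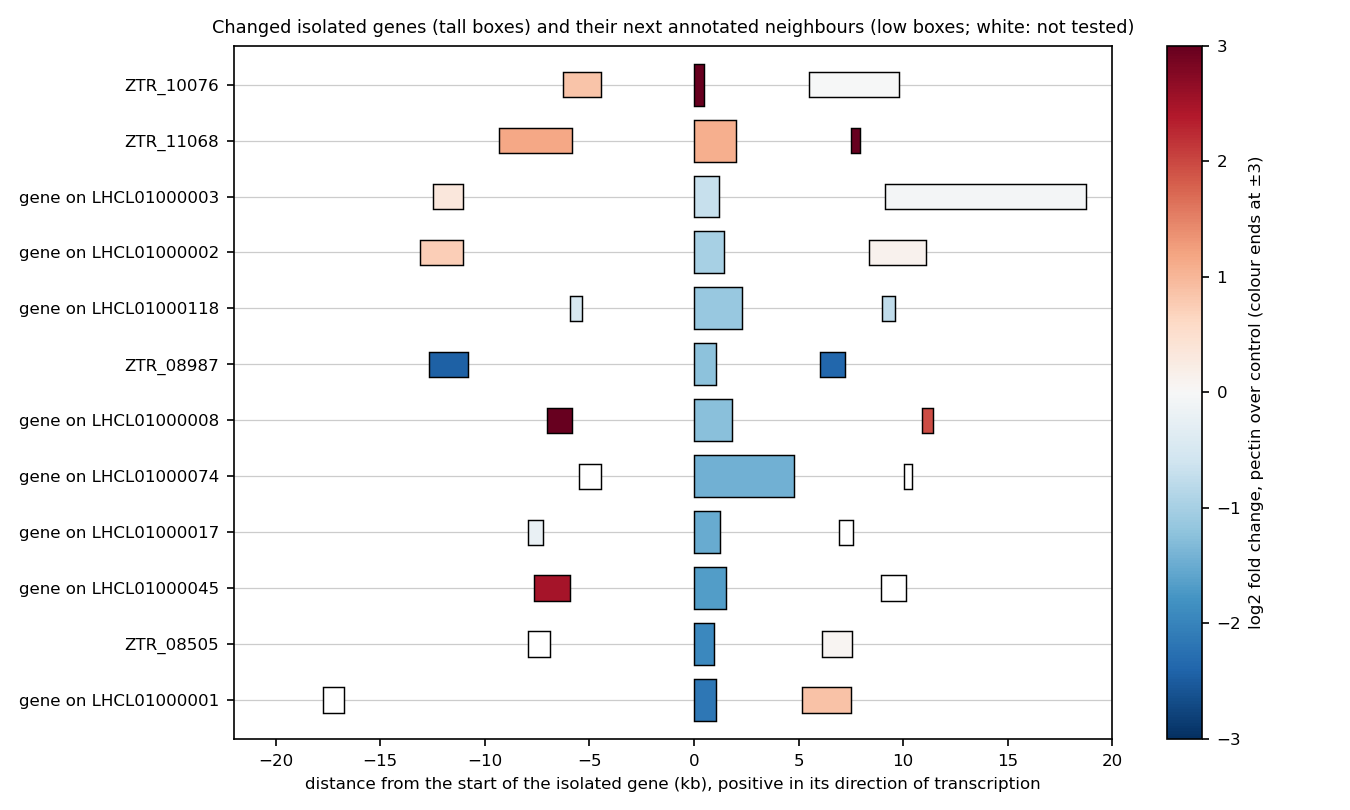
The 12 isolated genes that changed (tall boxes, 1 line each, those that rose on top) and their next annotated genes on each side (low boxes), drawn to scale by distance in kb from the start of the isolated gene in its direction of transcription. Colour gives the log2 fold change of pectin over control (red higher, blue lower, ending at ±3), and white boxes were not tested. Red neighbours flank several blue isolated genes, on both sides in the case of LHCL01000008.

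As a set, isolated genes took a smaller share of the unscaled exon reads in pectin libraries, while the groups overlapped after TMM scaling. They held 0.285%, 0.367% and 0.413% of exon reads in pectin 1 to 3, against 0.482%, 0.522% and 0.527% in control 1 to 3. Every pectin library lay below every control, with means of 0.355 ± 0.0650% with pectin and 0.510 ± 0.0244% in controls (SD, n = 3 each; exact permutation p = 0.1, two-sided, the smallest possible; adjusted p = 0.143 over 10 library measures). When each share was divided by the library's TMM factor, the means were 0.381 ± 0.0619% with pectin and 0.477 ± 0.0599% in controls (exact permutation p = 0.2, adjusted p = 0.2). Pectin 3, at 0.439%, then lay above control 1, at 0.408%. The 3 most abundant genes named above held 31.4% of the reads of all isolated genes over the 6 libraries.

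Reads outside annotated exons were about as frequent in isolated genes as in the whole annotation. They made up 15.4 ± 1.76% of the reads of isolated genes with pectin and 18.2 ± 1.32% in controls (SD, n = 3 each; exact permutation p = 0.2, adjusted p = 0.2). Over all genes the share was 15.1 ± 0.841% with pectin and 17.7 ± 1.85% in controls (exact permutation p = 0.1, adjusted p = 0.143). In isolated genes with 1 exon it was 17.3 ± 0.275% with pectin and 20.4 ± 1.58% in controls, beside 20.4 ± 1.65% and 23.6 ± 2.21% in all genes with 1 exon. The single genes were very unlike, from 3.97% to 57.2% among the 56 tested.

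Reads across exon-exon junctions were fewer than usual in isolated genes. The median share of exon reads that crossed a junction was 22.1% in the 36 tested isolated genes with several exons, beside 33.4% over the 7223 such genes tested. Exon numbers differ between these sets, and no test was made. In 2 of the 36 no junction read was found in any library, beside 196 of the 7223. One of them, on LHCL01000073 from 79509 to 80311 on the minus strand, is annotated with 3 exons and had 1622 exon reads. Of its 3786 reads in all, 54.0% lay outside the annotated exons with pectin and 58.7% in controls. Its level was 11.8, 18.7 and 18.7 RPKM with pectin, against 21.6, 34.2 and 29.1 RPKM in controls, with no call (edgeR adjusted p = 0.161). The other, on LHCL01000025 from 9665 to 12772, has 2 annotated exons and had 332 exon reads. A further gene, on LHCL01000111 from 6687 to 12195 with 6 annotated exons, had 218 junction reads among 12566 exon reads (1.73%). A strand-blind count cannot tell a gene's own reads from antisense ones, and whether the count used strand is not stated in the labels.

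The limit of 4000 bp cut through a continuous range of gaps. Just inside it were genes with smaller gaps of 4042 bp (log2 fold change −0.06, 14.6 ± 3.68 RPKM with pectin and 16.7 ± 2.72 RPKM in controls) and, on both sides of the same gap, 4048 bp. Of that pair one had 33.8 ± 20.8 RPKM with pectin and 33.3 ± 15.4 RPKM in controls, and the other had at most 0.10 RPKM in any library. Just outside were a gene with 3995 bp, at 0.173 ± 0.0751 RPKM with pectin and 0.0400 ± 0.0693 RPKM in controls, and a gene with 3979 bp, at 4.97 ± 1.06 RPKM with pectin and 8.28 ± 0.242 RPKM in controls (SD, n = 3 each). None of these 5 was called, but the gene with at most 0.10 RPKM and the gene with 3995 bp were left out of the test by the filter.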

How the data were processed

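Poly-A selected RNA of 3 pectin and 3 control cultures was sequenced as paired ends, per the labels' protocols. Per the file headers, the authors deposited, for each gene, read counts in exons, over exon-exon junctions and in introns, with RPKM. The labels name no aligner, counter or genome build. In the deposited files a gene's reads are the sum of its exon and intron reads, also for genes with 1 exon, so intron counts are called reads outside annotated exons; the deposited fraction of intron reads differs by at most 0.005 from the recomputed one. RPKM, as deposited by the authors, was computed against more reads than fell on exons and is not TMM-scaled.

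Exon reads were tested with edgeR 4.0.16 (R 4.3.3; quasi-likelihood, robust, TMM, filterByExpr) on all genes, with Benjamini-Hochberg adjustment and a threshold of 0.05; standard errors are the log2 fold change over the root of F. The script was tested on simulated data. TMM factors were 0.903 to 0.945 (pectin) and 1.02 to 1.18 (control). Alternatives were scaling, filter, DESeq2 1.42.0, replicate block, read type, gap limit and left-out libraries. Libraries of one group differed by more than sampling noise (chi-square per degree of freedom of 32.4 or more). All exon reads of isolated genes mapped uniquely.

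Membership followed from gene positions only, but the set and the comparisons were chosen for report with earlier results of these data known. Changed genes are named by tag for the 2 most abundant per direction among those at least 2-fold changed with no overlap of groups; the 3 most abundant, the 3 with the widest smaller gap and those at the gap limit are also given, by position where they changed or lie at the limit. Gap classes above 2000 bp were divided further, and neighbour, junction and replicate comparisons added, after the data were seen. Library measures were compared by exact permutation over libraries (Python 3.11.15, scipy 1.17.1).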

Additional observations from a re-analysis of the deposited data

How the results depend on the processing

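Against 10 isolated genes lower and 2 higher (8 and 2 at least 2-fold), leaving out 1 library gave 4 to 14 lower and 1 to 3 higher genes, and 4 to 10 and 1 to 3 at 2-fold. A filter of 10 CPM left 1 higher gene (1 at 2-fold), since ZTR_10076 is then not tested, and library size only left 1 higher at 2-fold. With gaps of at least 3000 bp, which take in 199 genes (141 tested), 15 were lower and 7 higher, 13 and 6 at 2-fold. With 6000 bp (12 genes, 9 tested), 2 were lower and 0 higher, with 0 at 2-fold in either direction. Over all tested genes of the same fit, 7.00% were lower and 9.20% higher, and 5.49% and 6.08% at 2-fold. Among those 9 genes, edgeR unadjusted p was under 0.05 in 5 lower and 0 higher. DESeq2 called 4 of them lower, 2 at 2-fold, and 0 higher. The shares of all tested genes by unadjusted p or in DESeq2 are not given here, so these counts have no background beside them. The median log2 fold change of −0.39 was −0.58 with the 10 CPM filter, −0.59 with library size only (all genes −0.21), −0.57 with 6000 bp gaps, −0.10 without control 1 and pectin 1, an alternative added after seeing the data, and −0.42 to −0.30 without 1 library. The difference in read share was −0.184 to −0.120 percentage points without 1 library, against −0.155, and that in reads outside exons −3.68 to −1.93, against −2.77; both kept their direction in all 12 and 11 alternatives tried. None of the 12 changed genes reversed in any fit (0 of 12). Replicate numbers are not said to mark pairs, and the correlation of deviations between libraries of 1 number was 0.46, 0.0593 and 0.413. The replicate block was therefore not taken as the design. A fit with it gave 18 lower and 2 higher isolated genes. The shares of all tested genes called in it and in the other alternative fits are not given here, so these counts have no background beside them. Each library correlated best with its own number, apart from control 2, which correlated best with pectin 3 (0.341). Apart from the construction of the alternatives, the cause of these differences was not tested. Depth limits the 22 genes left out of the test.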
